A study of Drosophila melanogaster with 6 samples.

Results

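When tropomodulin was knocked down in the muscle of Drosophila larvae, 54 of 17807 genes combined a clear drop with a steady level in the controls. They include the clock genes period (per), cryptochrome (cry) and vrille (vri), the muscle glutamate receptor subunit GluRIIB, the glutathione synthesis enzyme Gclc, the class I myosin Myo61F, and inscuteable (insc) and locomotion defects (loco), which act with heterotrimeric G proteins. They were chosen by their measured values. A gene had to average 10 normalized counts or more across the 6 libraries. On the log2(normalized count + 1) scale its 3 control libraries had to lie within 0.7 of each other, and its highest knockdown library had to lie at least 0.7 below its lowest control library. That distance is called the gap here. The numeric rule was met by 58 genes. The target itself, tmod, was then set aside, and so were Cpr47Ea, Cpr56F and Cpr78E, which belong to cuticle families excluded by symbol. Because the rule used the comparison of knockdown with control, the drops below are descriptions and carry no test.

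The libraries are RNA-seq of muscle-enriched lysates, each from a pool of 7 to 10 larvae late in the third instar, grown for about 90 h. The 3 knockdown libraries (tmodRNAi) had the genotype UAS-dcr2;;Dmef2-Gal4 with UAS-tmodRNAi, and the 3 control libraries (mCherryRNAi) had the same driver and UAS-dcr2 with UAS-mCherryRNAi, a hairpin against a fluorescent protein absent from the fly genome. Every library thus carried the Mef2 driver, which is active in muscle, and extra Dicer-2, which strengthens RNA interference; activity of the driver in other cells of the lysate was not tested. One label field names adult tissue, but the growth protocol and the series title describe larvae. The series title places the comparison within the study of muscle degeneration upon loss of Tmod in larvae.

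Between 83824273 and 110151028 reads per library were assigned to genes, so counting error was small for most members, and 3 reads corresponded to 2.41 to 3.31 normalized counts. The level of tmod was 70528, 92366 and 75101 normalized counts in the controls and 13993, 13734 and 12980 in the knockdown libraries. All 14 muscle markers were measured, and their summed level was 2359650 to 7301940 normalized counts in the controls, with control replicate 1 the highest, against 11208200 to 12629700 in tmodRNAi. Control replicate 1 therefore stood between the other controls and the knockdown libraries in muscle transcripts. The summed marker levels of other cell types differed too. Of 11 marker lists, 8 had a higher summed level in tmodRNAi with no overlap between the groups, among them fat body at 306325 to 983934 against 167912 to 269105 in controls and hemocytes at 326370 to 403004 against 214890 to 289024. The sums for 2 lists were lower without overlap, as the members are: glia, and gut and Malpighian tubule at 142475 to 164639 against 195816 to 215655. The median marker of these lists went the other way, at log2 differences of 0.29 for glia and 0.39 for gut and Malpighian tubule. The lower sums thus rest on the more abundant markers. Single markers of the higher lists were mixed. By limma at adjusted p under 0.05, 3 hemocyte markers were called higher and 3 lower, with a median log2 difference of 0.07. For epidermis and tendon, and for trachea, 0 were called. Fat body had 3 called higher, imaginal and cycling cells 5, testis and germline 8, muscle 7 and neurons 1. In these lists 0 were called lower. Of the 15 gut and Malpighian tubule markers only 8 averaged 10 normalized counts or more, with 1 called higher and 0 lower. No member is among the markers, and the part of the shifts in summed level in the members' values was not tested. In bulk lysates, fewer cells of a type and less RNA per cell cannot be told apart.

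As background, tropomodulin caps the pointed ends of actin thin filaments and so sets their length in the sarcomere. Larval body wall muscle is innervated by glutamatergic motor neurons, and its receptors are tetramers in which GluRIIA and GluRIIB compete for the same place beside shared subunits. The fly clock runs on a feedback loop in which Clock and Cycle drive period and timeless, whose products repress them, while Vrille and Pdp1 act in opposite directions on Clock; cryptochrome is a light receptor of that clock and, in peripheral tissue, can also repress it.

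The members spanned a wide range of drop and abundance. Their median log2 difference between knockdown and control was -1.63, with a range from -3.45 to -1.02, beside a median of 0.02 over all 10969 tested genes, those that averaged 10 normalized counts or more. The knockdown mean was a median of 32.4% of the control mean. It was under 20% for 8 members, 20 to 30% for 16, 30 to 40% for 18 and 40% or more for 12. The control mean was under 100 normalized counts for 13 members and at least 10000 for 11. In 5 members at least 1 knockdown library held no more than 3 reads, so the size of their drop is poorly fixed. They are His1:CG31617, CR33013, CG13716, lncRNA:CR43882 and asRNA:CR45924. With limma and Benjamini-Hochberg adjustment over all tested genes, 48 of the 54 members were called lower, where 12.9% of tested genes were called lower and 10.9% higher; the rule used the same contrast, so nothing is read from this. Groups that do not overlap, with tmodRNAi lower, are fixed by the rule for the members and were found for 26.4% of tested genes.

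**Figure D1:**
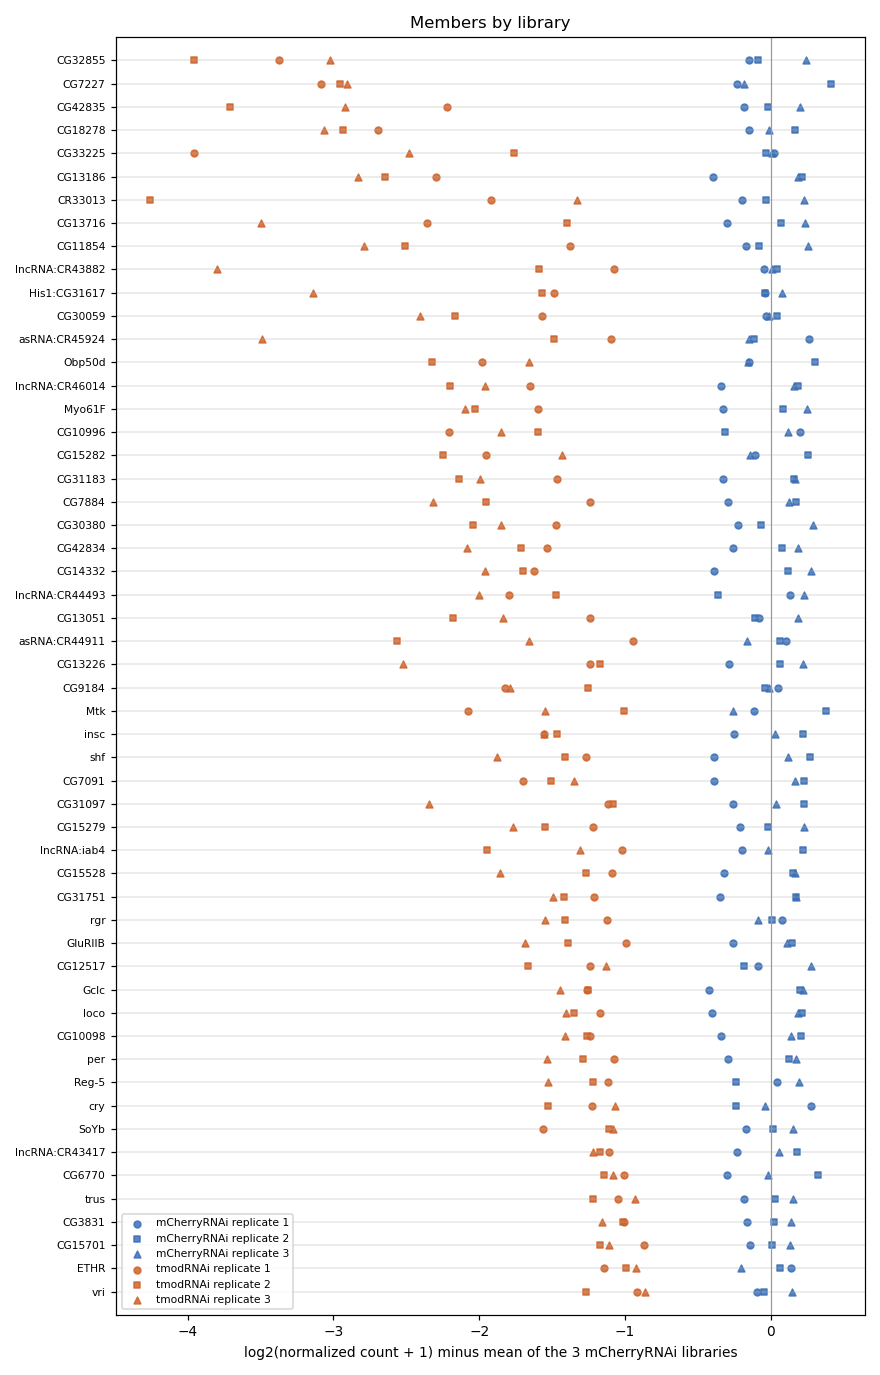
Each row is a member, and each point is the log2(normalized count + 1) of 1 library minus the mean of the 3 mCherryRNAi libraries of that gene (x axis, log2 units); blue marks mCherryRNAi and orange tmodRNAi, with a marker shape per replicate. Rows run from the largest log2 difference at the top (CG32855, -3.45) to the smallest at the bottom (vri, -1.02), and the separation of the colours is set by the rule.

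A larger group of genes reached the gap with less steady controls. A gap of at least 0.7 was reached by 260 genes in all, and in 202 of them the controls spanned more than 0.7. Those 202 genes lay further below their controls, with a median log2 difference of -2.56 and a median knockdown mean of 15% of the control mean. Control replicate 1 was the lowest control in 95.5% of those 202 genes, in 72.2% of the members and in 44.1% of all tested genes. The size of the group therefore rests on that library. Without mCherryRNAi replicate 1 the same rule was met by 850 genes, 52 of them members, whereas leaving out any other library gave 63 to 98 genes. Within the knockdown group, replicate 1 was the highest library for 32 members, or 59.3% against 36.1% of tested genes. Replicate 3 was the lowest for 29, or 53.7% against 33.0%. For the 202 genes with less steady controls these shares were 62.9% and 50%. Relative to its control mean, the median member stood at a log2 value of -1.27 in tmodRNAi replicate 1, -1.52 in replicate 2 and -1.78 in replicate 3.

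**Figure D2:**
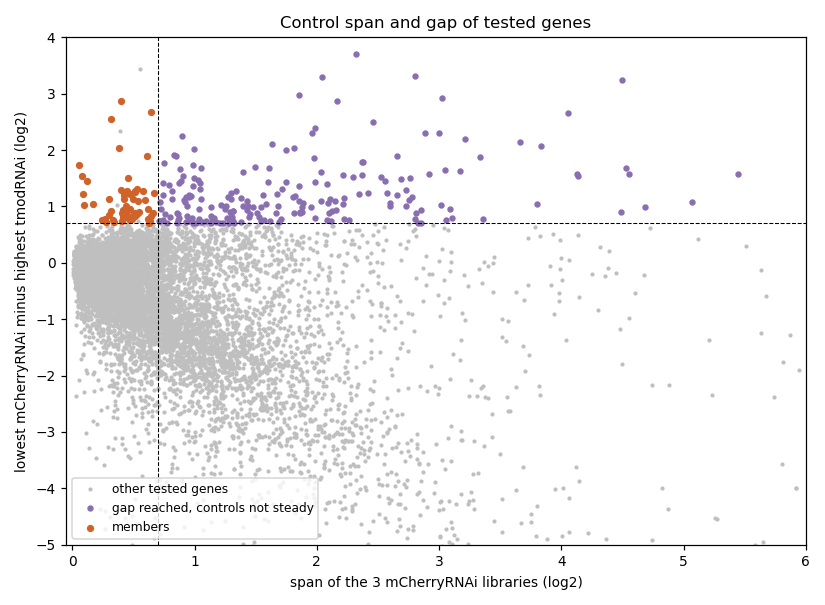
Each point is a tested gene, with the span of its 3 mCherryRNAi libraries on the x axis and the lowest mCherryRNAi minus the highest tmodRNAi library on the y axis, both in log2 units; dashed lines mark 0.7 on each axis, and 265 genes lie beyond the axes. The 54 members (orange) lie left of and above the lines, 202 genes (purple) have the gap with less steady controls, and the grey points beside the members are the 4 genes set aside by symbol.

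Other genes of the members' families and pathways are set beside them below with adjusted p from limma, and these calls depend on which libraries are used. Of the 69 tested genes in the 9 lists built around members, 13 were called lower and 4 higher by limma, beside 12.9% and 10.9% of all tested genes. All 17 calls were kept without mCherryRNAi replicate 1. None of the 17 was kept without mCherryRNAi replicate 2, without mCherryRNAi replicate 3, or without any of the tmodRNAi libraries, where at most 59 genes of the whole table passed.

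Of the clock genes, per was measured at 114, 152 and 157 normalized counts in the 3 controls and at 65.7, 56.5 and 47.4 in tmodRNAi. It lies on X from 2685580 to 2692780, plus strand (dm6), and encodes the repressor at the core of the loop. The knockdown mean was 56.5 ± 9.13 against 141 ± 23.7 in controls (SD, n = 3 each), or 40.1% of the control mean.

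The photoreceptor gene cry, on 3R from 19212154 to 19215442, was measured at 225, 158 and 181 normalized counts in controls and at 78.8, 63.9 and 88.2 in tmodRNAi. Its control order differed from that of per, since control replicate 1 was the highest library for cry and the lowest for per. The transcription factor gene vri, on 2L from 5288944 to 5311223, was far more abundant, at 16322, 16868 and 19302 in controls and 9223, 7240.5 and 9602 in tmodRNAi. Its knockdown mean, 49.7% of the control mean, was the smallest drop among the members. Reg-5, named as a rhythmically expressed gene, was measured at 30721, 25280.2 and 34175 in controls and 13785, 12812 and 10316 in tmodRNAi, or 40.9% of the control mean. These 4 genes thus had drops of like size at very different abundances, from 31.1 normalized counts per kb of exon for per to 16877 for Reg-5 in controls.

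No other tested gene of the clock list met the rule, although the log2 difference of sgg was close in size to that of vri. The list was put together after the members were known. timeless (tim), the partner of period, was measured at 183 to 196 normalized counts in controls and at 207 to 231 in tmodRNAi, a log2 difference of 0.20 with adjusted p = 0.231 by limma. clockwork orange (cwo), a repressor of Clock targets, differed by 0.07 with adjusted p = 0.698. cycle (cyc) differed by -0.64 with adjusted p = 0.108, and Clk itself was under the mean of 10 and was not tested. Pdp1, the activator in the loop with vri, was higher by 2.27 with adjusted p = 0.0467, but its controls were uneven at 3714, 708 and 900 normalized counts, with control replicate 1 closest to the knockdown range of 5731 to 7446. Among the kinases that act on the clock proteins, shaggy (sgg), which lies 6027 bp from per, was lower at a log2 difference of -0.92 with adjusted p = 0.0339, and its groups did not overlap. The casein kinase gene dco differed by -0.33 with adjusted p = 0.0708. The labels give no hour of collection.

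**Figure D3:**
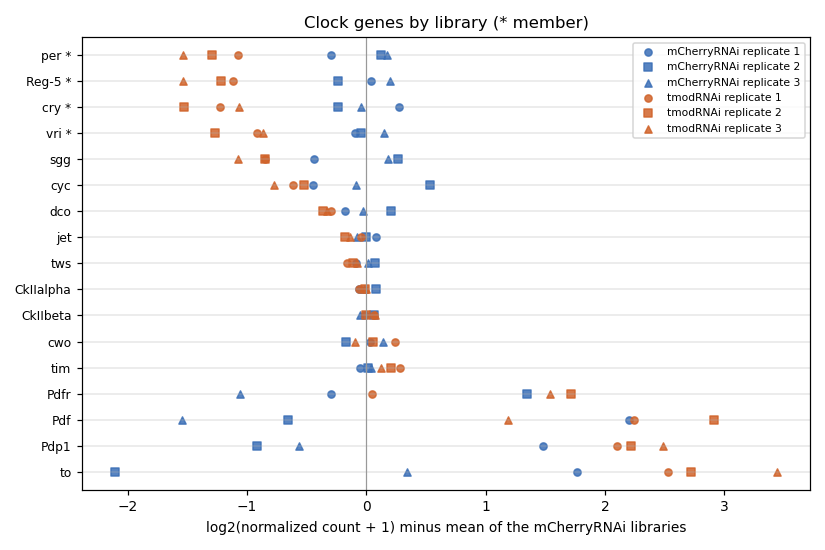
Rows are the tested genes of the clock list, members starred, and points are log2(normalized count + 1) of each library minus the mean of the 3 mCherryRNAi libraries (x axis); blue is mCherryRNAi and orange tmodRNAi. The tmodRNAi points of per, Reg-5, cry and vri lie apart from the controls, those of tim and cwo lie among or near them, and Pdp1 and takeout (to) have widely spread controls.

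GluRIIB, on 2L from 5559342 to 5563502, was the member among the postsynaptic receptor genes. Its values were 1697, 2249 and 2197 normalized counts in controls and 1018, 772 and 629.6 in tmodRNAi, and its mean was 39.4% of the control mean. Its neighbour and alternative subunit GluRIIA ends 348 bp from it on the same strand. GluRIIA was measured at 4140 to 5088 in controls and 3616 to 3905 in tmodRNAi, a log2 difference of -0.32 with adjusted p = 0.0601 by limma. The shared subunits GluRIIC, GluRIID and GluRIIE differed by 0.25, 0.06 and 0.14 on the log2 scale, with adjusted p of 0.447, 0.514 and 0.436. Of the 5 receptor subunit genes, GluRIIB alone met the rule.

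The Inscuteable adaptor links the Par polarity proteins to Pins and the G protein alpha subunit Galphai, and loco encodes a regulator of G protein signalling that acts on Galphai. insc, on 2R from 20821262 to 20836028, was measured at 823, 1142 and 999.5 normalized counts in controls and at 332, 354 and 332 in tmodRNAi, the knockdown group with the least spread on the log2 scale of all members. loco, on 3R from 22619968 to 22639387, was measured at 13021, 19956 and 19534 in controls and at 7641, 6728 and 6496 in tmodRNAi. The knockdown means were 34.3% and 39.7% of the control means.

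Their partners were lower by less, or not at all. The log2 differences were -0.60 for pins (adjusted p = 0.0306), -0.64 for Galphai (adjusted p = 0.038) and -0.51 for par-6 (adjusted p = 0.0404), all by limma. mud, which anchors the spindle through Pins, was higher by 0.66 with adjusted p = 0.0306. Galphao, the other alpha subunit that Loco binds, differed by 0.01 with adjusted p = 0.932, and baz differed by -0.57 with adjusted p = 0.0647. Because loco is also known from glia, the glial markers were set beside it: the 8 measured markers summed to 67754 to 147958 normalized counts in controls and to 42735 to 49929 in tmodRNAi, with 2 called lower and 1 higher. The control sum of 67754 was that of control replicate 1. The median glial marker went the other way from loco, at a log2 difference of 0.29. The part of the glial markers in the loco value was not tested.

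Myo61F encodes a class I unconventional myosin, a single-headed motor that links actin to membranes. It lies on 3L from 1318480 to 1329617 on the plus strand and was measured at 23679, 31429 and 35275 normalized counts in controls and 9823, 7287 and 6928 in tmodRNAi, or 26.6% of the control mean. Myo31DF, also of class I, differed by 0.04 with adjusted p = 0.716 by limma. The myosin VI gene jaguar (jar) was lower at a log2 difference of -0.83 with adjusted p = 0.0418, and ninaC, a myosin III, at -0.70 with adjusted p = 0.0399. Myo10A, the myosin VII gene crinkled (ck) and the myosin V gene didum differed by 0.10, -0.08 and 0.15 with adjusted p of 0.435, 0.372 and 0.144. CG9184, another member, lies inside Myo61F on the opposite strand with no exon shared. It was measured at 188, 177 and 179.6 in controls and at 50.5, 75.6 and 51.8 in tmodRNAi, and whether reads of Myo61F introns add to it was not tested.

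**Figure D4:**
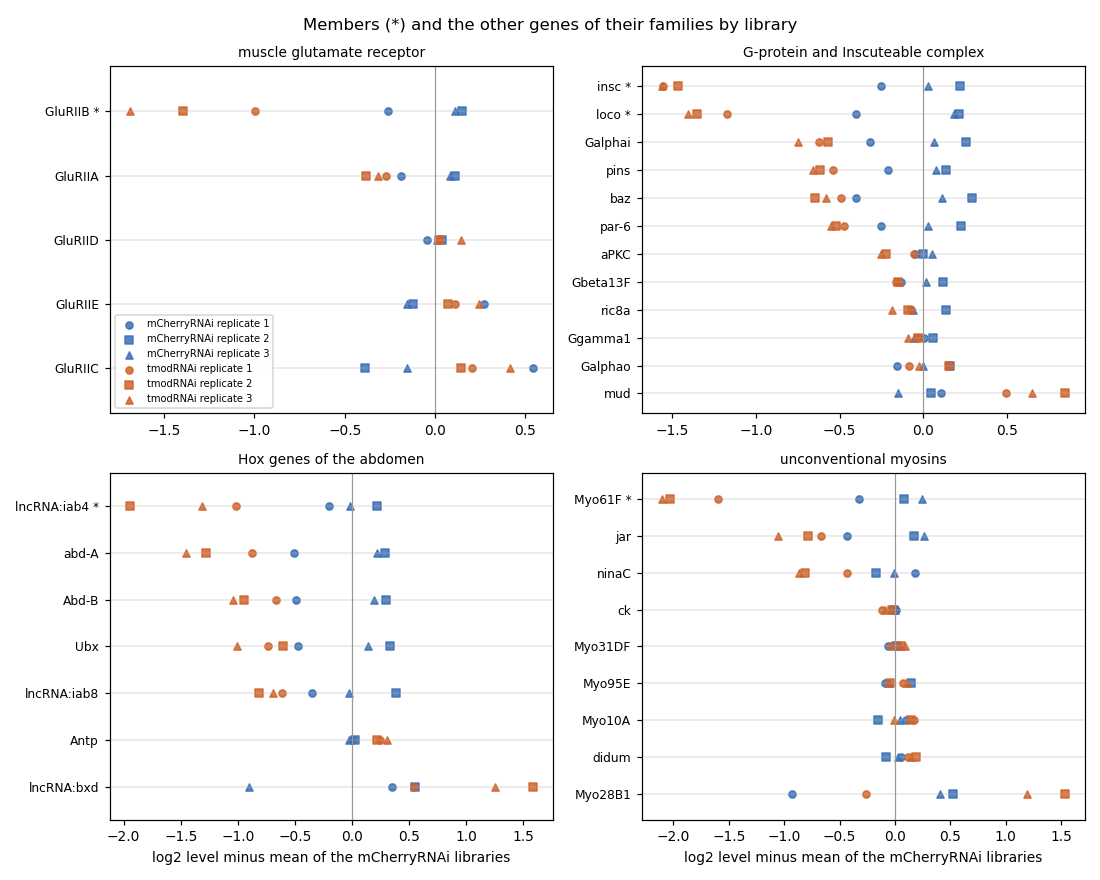
The 4 panels show the muscle glutamate receptor genes, the G protein and Inscuteable group, the Hox genes of the abdomen and the unconventional myosins; points are the log2(normalized count + 1) of each library minus the mean of the mCherryRNAi libraries (x axis), members starred, blue mCherryRNAi and orange tmodRNAi. The starred GluRIIB, insc, loco, lncRNA:iab4 and Myo61F have the lowest log2 differences of their panels, at -1.36, -1.53, -1.31, -1.42 and -1.91.

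Gclc is the catalytic subunit of glutamate-cysteine ligase, the rate-limiting enzyme of glutathione synthesis. It lies on X from 8102181 to 8116147 and was measured at 3430.0, 5283 and 5369.6 normalized counts in controls and 1919, 1932 and 1684 in tmodRNAi, or 39.3% of the control mean. Its control span of 0.65 was near the limit of the rule, with control replicate 1 the lowest. The modifier subunit Gclm of the same enzyme differed by 0.35 in the other direction with adjusted p = 0.133 by limma. Gss1 and Gss2, which complete glutathione, differed by -0.12 and -0.14 with adjusted p of 0.181 and 0.156. The gene of the Nrf2-type activator, cap-n-collar (cnc), was lower at -0.97 with adjusted p = 0.0334, and its inhibitor Keap1 differed by -0.65 with adjusted p = 0.0863. Of the 59 tested genes of a wider list of Nrf2-type stress response and glutathione genes, 9 were called higher and 10 lower. Over all tested genes 10.9% were called higher and 12.9% lower.

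CG6770, also called p8, is the fly counterpart of a small mammalian nuclear stress protein, and it was the most abundant member per length at 399329 normalized counts per kb of exon in controls. It lies on 2L from 12045343 to 12046118. Its counts were 247555, 381134 and 300948 in controls and 151996, 137962 and 144138 in tmodRNAi, a narrow knockdown group at 46.7% of the control mean. It was the member closest to the gap limit.

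The secreted and receptor genes included ETHR, the receptor for ecdysis triggering hormone, which starts moulting behaviour. ETHR, on 3R from 21247011 to 21265134, was measured at 1307, 1241 and 1032 normalized counts in controls and at 536, 594 and 626 in tmodRNAi, or 49.1% of the control mean. Of the other tested receptors of moulting peptides, CrzR and rk were lower with uneven controls and CCAP-R was not called. CrzR, the corazonin receptor, was measured at 464, 1154 and 1071 in controls and 276, 112 and 98.1 in tmodRNAi, a log2 difference of -2.51 with adjusted p = 0.0322 by limma. rickets (rk), the bursicon receptor, differed by -2.06 with adjusted p = 0.0306. CCAP-R, the receptor for crustacean cardioactive peptide, differed by 0.10 with adjusted p = 0.723.

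CG31183 encodes a receptor-type guanylyl cyclase, a membrane protein that makes cyclic GMP. It was measured at 5888, 8270.1 and 8290.1 normalized counts in controls and 2673, 1675 and 1851 in tmodRNAi, or 27.6% of the control mean. CG7227, a CD36-type scavenger receptor on 2L from 7994388 to 7998151, was measured at 174, 274 and 181 in controls and at 23.2, 25.6 and 26.5 in tmodRNAi, or 12% of the control mean. Its neighbour pes, another CD36-type gene 204 bp away, had a log2 difference of -1.09. Among transporters, CG15279 of the sodium-coupled amino acid and neurotransmitter family stood at 35.2% and CG7091, a predicted transporter of the major facilitator superfamily, at 34.2% of the control mean.

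shifted (shf) encodes a secreted protein that lets Hedgehog spread through the matrix. shf was measured at 1535, 2426 and 2187 normalized counts in controls and 833, 754 and 546 in tmodRNAi. The Hedgehog co-receptor gene ihog was lower at a log2 difference of -0.81 with adjusted p = 0.0415 by limma, and its paralog boi differed by 0.59 with adjusted p = 0.0622. The transcription factor ci was higher by 0.27 with adjusted p = 0.037. hh, ptc and smo differed by 0.22, 0.05 and -0.19 with adjusted p of 0.309, 0.771 and 0.280.

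The immune and odorant-binding members were low. Mtk, the antifungal peptide metchnikowin, was measured at 22.5, 32.2 and 20.3 normalized counts in controls and 5.05, 11.7 and 7.72 in tmodRNAi. It was the only member of 65 tested immune genes, of which 11 were called higher and 11 lower, beside 10.9% and 12.9% of all tested genes. Obp50d, of the odorant-binding protein family, was measured at 70.6, 97.3 and 70.6 in controls and at 19.2, 14.9 and 24.3 in tmodRNAi. CG33225, a predicted serine protease homolog on 2R from 21590275 to 21591584, had nearly equal controls at 142, 137 and 141, whereas its knockdown libraries were 8.08, 40.5 and 24.3. The spread of CG33225 among knockdown libraries was thus far wider than among controls.

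CG11854, a member of the takeout family of hydrophobic ligand carriers on 3R from 25242020 to 25243262, was second in abundance per length at 267068 normalized counts per kb in controls. It was measured at 244295, 260301 and 327854 in controls and at 105700.0, 48242 and 39864 in tmodRNAi, with tmodRNAi replicate 1 well above the other two. takeout (to) itself ends 352 bp away on the same strand and differed in the other direction. It was measured at 236, 15.3 and 87.7 in controls and 403, 460.3 and 759 in tmodRNAi, a log2 difference of 2.90 with adjusted p = 0.0687 by limma. CG11852, the next family gene on that side, had a log2 difference of 1.14.

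Another local group was formed by CG42834, CG42835 and CG14332, 3 short genes of a single exon block each on 3R between 17418759 and 17422202. CG42834 was measured at 31019.7, 39122 and 42247 normalized counts in controls and 12846, 11341 and 8768 in tmodRNAi. CG14332, on the opposite strand, was measured at 27136, 38492 and 43012 in controls and at 11544, 10943 and 9153 in tmodRNAi. Both stood at about the same share of the control mean, 29.3% and 29.1%, and at similar levels per length, 69893 and 70591 normalized counts per kb in controls. CG42835, between them, was lower in level, at 882, 989.5 and 1149 in controls and 214, 75.6 and 131 in tmodRNAi, and stood at 13.9%. On the lower-coordinate side CG33333 differed by -0.45 and CG5866 by 2.46 on the log2 scale. Whether reads are shared among such short genes was not tested.

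CG18278 and CG30059 lie 2882 bp apart on 2R, on the same strand, the first from 13408042 to 13409887 and the second from 13412769 to 13414620. CG18278 was measured at 1188, 1476 and 1303 normalized counts in controls and 203, 172 and 157 in tmodRNAi. CG30059 was measured at 617, 650.0 and 624 in controls and 211, 139.6 and 118 in tmodRNAi. They have 4 exon blocks each, exonic lengths of 1677 and 1683 bp, and each overlaps 272 bp of exon of a BaraA gene on the opposite strand. BaraA1 and BaraA2 are known as near-identical duplicates. How the counting divided reads between copies is not given in the sources used here, so the separate levels are uncertain. BaraA1, listed as CG33470, differed by 0.16. In all, 7 members lay within 10 kb of another member. The 102 nearest tested neighbours that are no members were lower in 53.9% of cases, beside 48.5% of tested genes, with a median log2 difference of -0.07.

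**Figure D5:**
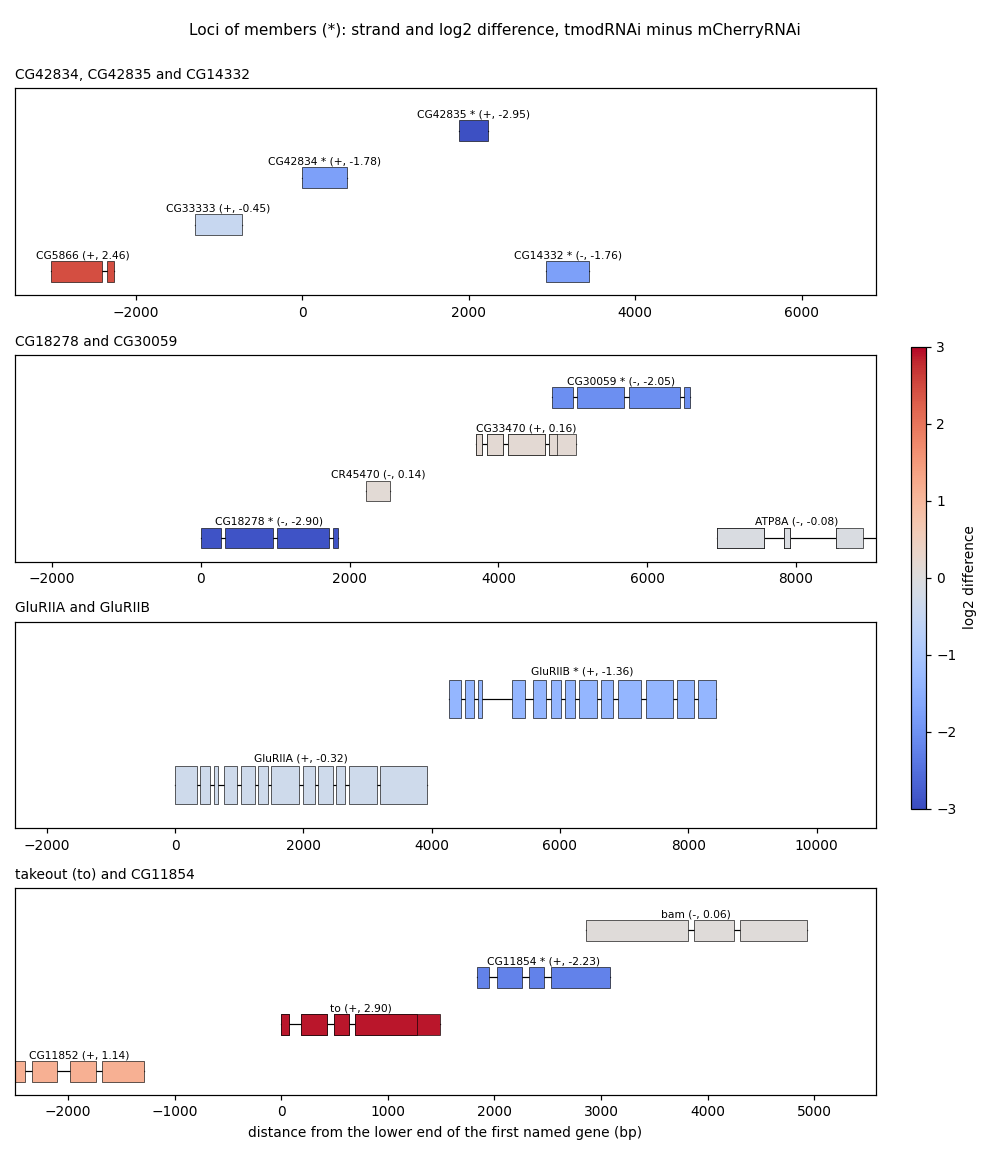
Gene maps of 4 loci (tested genes only) with exons as boxes, strand and log2 difference (tmodRNAi minus mCherryRNAi) in brackets, members starred; the x axis is the distance in bp from the lower end of the first named gene, and box colour runs from blue (lower in tmodRNAi) to red (higher). CG42834, CG42835 and CG14332 are all blue beside a red CG5866, GluRIIB is a deeper blue than GluRIIA, and CG11854 is blue beside a red takeout (to, 2.90).

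CG32855 had the largest gap and the largest drop. It is a gene of 1 exon block on 3R from 16078980 to 16080992, inside Mhcl on the same strand, and was measured at 281, 294 and 369.9 normalized counts in controls and at 29.3, 19.2 and 37.5 in tmodRNAi, or 9.10% of the control mean. Mhcl, which encodes a myosin heavy chain-like protein, had a log2 difference of 0.60, in the other direction. The next tested gene at higher coordinates, sxe2, lies 2886 bp from CG32855. The log2 difference of sxe2 was -2.20, in the same direction as CG32855. CG13186 stood at 16.3% of its control mean, with 267, 407 and 399.8 in controls and 70.7, 55.4 and 48.5 in tmodRNAi. CG15282, on 2L from 14712471 to 14713298, came after CG6770 and CG11854 in abundance per length, at 110253 normalized counts per kb in controls. It was measured at 71052, 91372 and 69438 in controls and 19823, 16164 and 28464 in tmodRNAi.

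Nuclear and RNA-pathway members were few. SoYb, a Tudor protein of the piRNA pathway, was measured at 246, 280.0 and 307 normalized counts in controls and 92.9, 128 and 130.1 in tmodRNAi. Its relative BoYb differed by -0.52 with adjusted p = 0.117 by limma, and armi, which acts in the same pathway, by 0.10 with adjusted p = 0.569. The 22 testis and germline markers in the table summed to 2909 to 4477 in controls and 5990 to 7700 in tmodRNAi, the direction opposite to SoYb. trus, of a family that helps small ribosomal subunits mature, stood at 47.6% of the control mean. regular (rgr) was measured at 9962, 9503 and 8872 in controls and 4327, 3547 and 3225 in tmodRNAi. His1:CG31617, a copy of the linker histone gene, went from 26.5, 26.5 and 28.9 to 9.09, 8.52 and 2.21; the histone genes are near-identical repeats, so its own level is uncertain.

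Of the 54 members 46 were protein-coding, 7 were non-coding RNAs and 1 was a pseudogene. Non-coding RNAs made up 13% of members, 8.91% of the 202 genes with less steady controls and 4.48% of tested genes. lncRNA:iab4, the host transcript of a bithorax complex microRNA on 3R from 16850004 to 16856497, was measured at 77.4, 104 and 87.7 normalized counts in controls and 43.4, 22.4 and 35.3 in tmodRNAi. It overlaps lncRNA:iab8 on the opposite strand over 1274 bp of exon, and lncRNA:iab8 had a log2 difference of -0.71 with adjusted p = 0.0488 by limma. The Hox genes on either side, abd-A and Abd-B, were lower at -1.20 and -0.89 with adjusted p of 0.0334 and 0.0422, Ubx differed by -0.78 with adjusted p = 0.053, and Antp of the other Hox complex was higher by 0.25 with adjusted p = 0.0418. abd-A, Abd-B and Ubx had control replicate 1 as their lowest control.

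lncRNA:CR46014 was the non-coding member with the largest gap, at 184, 266 and 262 normalized counts in controls and 73.7, 50.1 and 59.5 in tmodRNAi. lncRNA:CR44493, lncRNA:CR43417 and lncRNA:CR43882 stood at 29.3%, 44.2% and 27.7% of the control mean. asRNA:CR45924 lies antisense to anachronism (ana) and shares 73 bp of exon with it; it stood at 27.2% of its control mean, and ana itself had a log2 difference of -2.04. asRNA:CR44911, antisense to bur, stood at 31.2%. The pseudogene CR33013 was measured at 15.7, 17.7 and 21.4 in controls and at 4.04, 0 and 6.62 in tmodRNAi, where 3 reads correspond to 3.20 normalized counts in the library at 0. In all, 19 members share exon sequence with another gene, 17 of them with one on the opposite strand. The strand setting of the counting is not given in the sources used here, so reads from stretches shared on opposite strands cannot be told apart. The shared part differed widely, with 55.2% of the exons of CG7227 and 1.08% of those of per.

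The remaining protein-coding members stood at these shares of their control means. CG10996 was at 25.8%, CG30380 at 28.9%, CG7884 at 29.0%, CG13051 at 30.5%, CG13226 at 32.2% and CG12517 at 35.6%. CG13716, inside axotactin (axo), was at 19.7%, and axo itself, on the same strand, had a log2 difference of -1.87; whether reads of axo introns add to CG13716 was not tested. CG31097 was at 36.5%, CG31751 at 38.1%, CG15528 at 38.2%, CG10098 at 40%, CG3831 at 47.8% and CG15701 at 48.3%. Of all members 29 carry a CG number as their symbol in the deposited table, 53.7% against 37.3% of tested genes; some of them, such as CG6770, have a name elsewhere. Members with a single exon block numbered 18, 33.3% against 13.5% of tested genes, and the median exonic length was 1604.5 bp against 1982.5 bp. Among the 202 genes with the gap but less steady controls, 49.5% carry a CG number and 17.3% have a single exon block. Their median exonic length was 1567 bp. By chromosome arm, 16 members were on 2R, 16 on 3R, 12 on 2L, 5 on 3L and 5 on X. Arm 3L held 9.26% of members, 15.8% of those 202 genes and 19.5% of tested genes.

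The role lists used for the wider series are set beside the members here. Of 21 lists with 1342 tested genes, 17 held none, and the 4 members in a list were Gclc, Mtk, GluRIIB and His1:CG31617, or 7.41% of members against 12.2% of tested genes. The listed genes include some that the rule sets aside by symbol, such as tmod and the proteasome subunits. With only 4 members listed, nothing is read from these shares. The proteasome shows what the gap limit left out. Its symbols are excluded by the rule, but no subunit gene would have met it by value: all 33 tested subunit genes were called lower by limma at a median log2 difference of -0.94, but the largest gap among them was 0.57. Of 39 sarcomere and Z-disc genes 18 were called higher and 4 lower, and tmod alone met the numeric rule among them. Over all tested genes 10.9% were called higher and 12.9% lower.

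At the edge of the rule, CG6770, ETHR and CG15701 had the smallest gaps inside it, at 0.70, 0.72 and 0.73. CG31121, RNaseMRP:RNA and CG10799 fell just short, with gaps of 0.70, 0.70 and 0.69 after rounding. CG31121 was measured at 5999, 9420 and 9382 normalized counts in controls and 3694, 3391 and 3346 in tmodRNAi. Inside the limit on control span, Gclc, shf and CG14332 were closest, at 0.65, 0.66 and 0.66, and eIF2Bdelta, Idgf1 and SkpB were just outside at 0.70, 0.72 and 0.72.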

How the data were processed

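The authors deposited 1 table of normalized counts for 6 libraries, a signal that is never negative. Genome build dm6 and DESeq2 1.30.1 come from the submitters' processing notes; aligner, counter, annotation and strand setting are not given in the sources used here. Per the labels' protocols, RNA was extracted with Trizol and libraries were made with a SMARTer kit. In each deposited column 100% of values were whole multiples of a fixed step (tolerance 0.1 read), so reads were recovered for edgeR and DESeq2.

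The labels mark the libraries as biological replicates. Values were analysed as log2(normalized count + 1), which understates changes of low genes. Genes with a mean of at least 10 were tested with limma 3.58.1 (trended eBayes, R 4.3.3), with Benjamini-Hochberg adjustment over all 10969 genes and a threshold of 0.05. Every adjusted p in the text is from limma. ± is the SD over 3 libraries. The smallest two-sided p that an exact permutation of 3 against 3 libraries allows is 0.1. The fit was tested on simulated data.

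Members and lists were chosen with earlier results of these data known; the 9 lists around members were chosen after the members were seen. Named members were those with the 10 largest gaps, the 5 highest control means, the 5 largest falls among genes with a mean of at least 100, members in role lists and those at the limits; others were named to account for every member. Alternatives were pseudocounts 0.1 and 10, other filters, median centring, quantile normalization, edgeR 4.0.16, DESeq2 1.42.0, other limits and leaving out libraries. Positions and exons are from the Ensembl BDGP6.54 annotation, which has dm6 coordinates and held all 54 members and 17710 of the deposited identifiers. Promoter motifs were not analysed here. Read floors cover counting error only.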

Additional observations from a re-analysis of the deposited data

How the results depend on the processing

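Under other pseudocounts, filters, scalings and left-out libraries, 610 member values moved by less than the within-group SD and 22 by more. All of these 22 were under another pseudocount or quantile normalization. No member changed direction, but the rule fixed this for pseudocounts, filters and left-out libraries. Only the scalings could have reversed a member. The median log2 difference of the members was -1.71 and -1.39 with pseudocounts 0.1 and 10, -1.69 with median centring, -1.78 with quantile normalization, and -1.72 to -1.52 with 1 library left out. Membership itself moved more. The rule was met by 84 genes with quantile normalization (49 of them members; Reg-5, vri, loco, CG6770 and CG11854 were not), by 121 with a gap of 0.5 and 27 with a gap of 1, by 35 with a control span of 0.5 and 95 with a control span of 1, and by 63 to 850 with 1 library left out. In total 13 members met every version of the rule.

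Over all tested genes limma called 2613, DESeq2 4364 and edgeR 2417. With 1 library left out limma called 0 to 5225; where it called 0 (without mCherryRNAi replicate 3, tmodRNAi replicate 2 or tmodRNAi replicate 3), 3244, 3446 and 3421 genes had an unadjusted p under 0.05. No pairing by replicate number was seen in the values. Same-numbered libraries had correlations of deviations of -0.06, 0.02 and -0.02, beside -0.08 to 0.10 for differently numbered ones. Whether libraries were handled in pairs cannot be settled from this. With a replicate block limma called 0 genes, with 3969 at an unadjusted p under 0.05. Depth limits the 5 members with a knockdown library at or under 3 reads.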
